A study of Mus musculus with 3 samples.

Results

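The transcripts described here are those of 10 genes of the Notch pathway: the receptors Notch1, Notch2, Notch3 and Notch4, the ligands Dll1, Dll4, Jag1 and Jag2, and the target genes Hey1 and Heyl. Every gene probe that the array names after one of these genes was taken, which gave 10 of 28090 gene names and 15 probes on 33 spots out of 41174 gene probes on 43379 spots per array. The genes were chosen by name and not by a threshold on their values, though with earlier results of these data known. RNA of C57BL/6 mouse hearts at embryonic day 15.5 (E15.5) was read on 3 two-colour Agilent arrays of 60-base probes, which are the 3 replicates of 1 comparison. On each array, pooled RNA of 2 hearts labelled Lrrc10-/- carried the dye Cy5 and pooled RNA of 2 hearts labelled Lrrc10+/+, taken from littermates, carried Cy3. The product of Lrrc10 is a heart muscle protein with leucine-rich repeats, and the deletion is present in every cell of the mutant embryo. The Lrrc10+/+ channel also holds a label of 2 months for the time of sacrifice, which goes against its age label of E15.5, and the age label was used. The question asked of these hearts was which transcripts differ when Lrrc10 is lost, and here it is put to the Notch pathway.

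Notch receptors are membrane proteins that are cut when they bind a Delta-like (Dll) or Jagged (Jag) ligand on a neighbouring cell. The freed intracellular part enters the nucleus, joins the DNA-binding protein Rbpj and switches on target genes, among them the Hey and Hes repressors. In the developing heart the pathway acts mainly between endocardium, vessel wall and myocardium, where it takes part in forming valves, trabeculae and coronary vessels.

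None of the 14 tested probes of these genes passed limma's adjusted threshold of 0.05 in either direction, against 1.4% of 28328 probes tested over the whole array (1.39% higher and 0.00353% lower in Cy5). By limma's unadjusted p under 0.05, 1 probe was higher in Cy5 (Jag1) and 0 were lower, where 9.07% and 4.26% of all tested probes were. The methods' t-test also called 0 of the 14 after adjustment. All ratios below are log2 of Cy5 over Cy3 after loess, so a value above 0 is a higher signal in the channel labelled Lrrc10-/-. The lowest of the 14 mean ratios was -0.25 and the highest 0.46. Their median was 0.087 and 8 of them were above 0, beside a median of 0.013 and 52.6% above 0 over all tested probes. For single probes the half-width of the 95% confidence interval, not adjusted for the number of probes, ran from 0.27 to 0.43. A 1.2-fold difference corresponds to 0.26, so a mean ratio of that size would have an interval that includes 0 for every probe.

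All 9 cardiomyocyte markers were well above background in both channels of every array, as the tissue label has it, but the targeted gene went against the labels. The Lrrc10 ratio was 3.99, 4.78 and 4.45 on arrays 1, 2 and 3 (mean 4.41 ± 0.40, SD, n = 3; limma adjusted p of 0.000386), higher in the channel labelled Lrrc10-/-. Directions are therefore given by channel. They would turn if the labels were exchanged and would hold if they were not, and this was not tested. The dyes were never swapped, so genotype and dye cannot be told apart. Array 1 was scanned on another scanner model and read with an earlier software version than arrays 2 and 3, and the share of gene spots well above background was lowest on array 3, at 63.9% in Cy5 and 69.3% in Cy3. The authors describe 3 independent biological replicates, but nothing in the labels says whether pools came from separate litters. The p-values measure the spread of the 3 array ratios, in which pools, labelling and scanning cannot be told apart. In whole hearts, fewer cells of a type and less RNA per cell cannot be told apart.

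**Figure D1:**
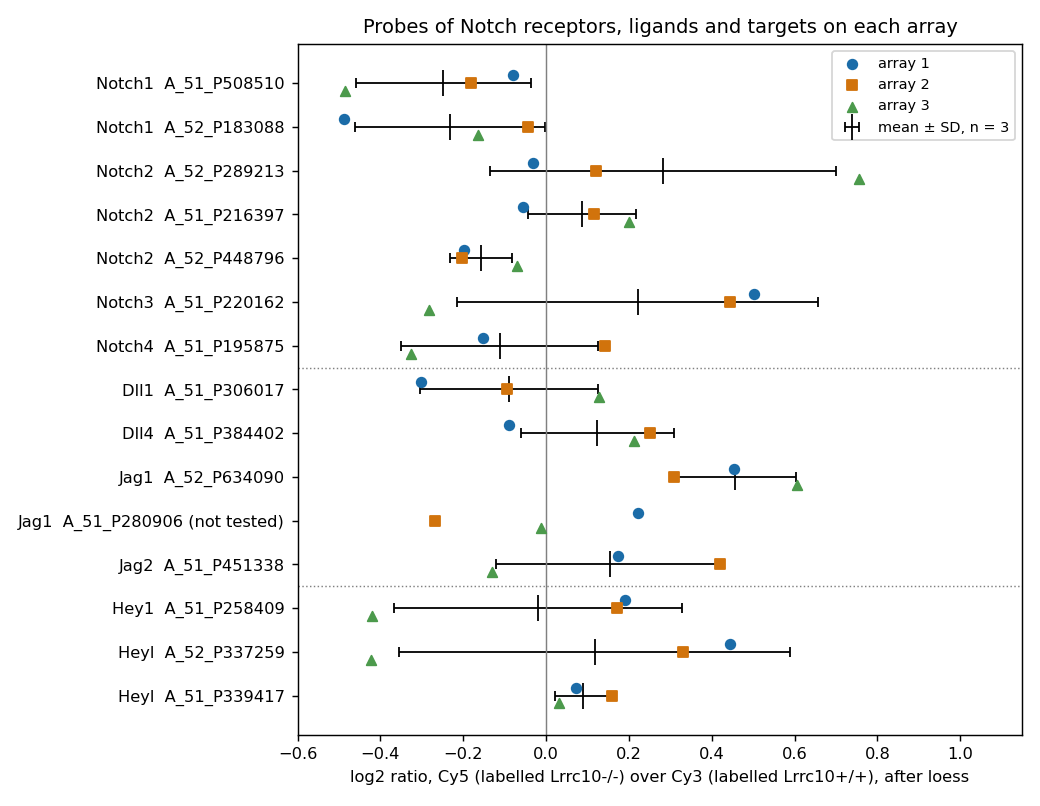
Log2 ratio of Cy5 over Cy3 after loess (x axis) for each of the 15 probes (rows), with 1 symbol per array and the mean ± SD over 3 arrays as a bar for the 14 tested probes. The Jag1 probe A_52_P634090 lies above 0 on all 3 arrays, both Notch1 probes lie below 0 on all 3, and Notch3, Hey1 and the Heyl probe A_52_P337259 lie above 0 on arrays 1 and 2 and below 0 on array 3.

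The 4 receptors showed no common direction. The 7 receptor probes had a median of -0.11, with 3 above 0 and 4 below. Among the 4 below is the Notch2 probe A_52_P448796. It was tested only because it was well above background in Cy3 on all 3 arrays, the channel in which it was higher after loess. Notch1 was below 0 by both of its probes on every array after loess, Notch3 stood above 0 on average with a wide spread, and the 3 probes of Notch2 did not point the same way. None of the 7 reached an unadjusted p under 0.05 in limma, the lowest being 0.095 for Notch1.

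Notch1, the receptor needed in endocardium for trabeculae and valves, was read by probes that adjoin each other on the minus strand of chromosome 2 (chr2:26314772-26314830 for A_51_P508510 and chr2:26314830-26314889 for A_52_P183088, positions of the files in mm9). The first was printed 10 times on each array, which lets the spread of its ratio over spots be seen. Its sequence is shown because it holds AATAAA, the common signal for adding a poly(A) tail, found in 1 of the 15 probes on the transcript strand (capitals, bases 22 to 51 of the probe).
Notch1 A_51_P508510: ctgttccaagaaAATAAActagttctcaga
The ratios of this probe were -0.079, -0.18 and -0.49 on arrays 1, 2 and 3 (mean -0.25 ± 0.21, SD, n = 3), with processed signals of 433, 600 and 461 in Cy5 and 454, 678 and 800 in Cy3. The Cy3 signal was the higher on all 3 arrays, by most on array 3. The limma adjusted p was 0.463, and the 95% interval of the mean ran from -0.55 to 0.055. The neighbouring probe gave -0.49, -0.044 and -0.16 (mean -0.23 ± 0.23, SD, n = 3; limma adjusted p of 0.50), with processed signals of 100.1, 119 and 165 in Cy5 and 156, 114 and 242 in Cy3. The processed signal was thus slightly higher in Cy5 on array 2. The 2 means differed by 0.016, but the probes were furthest from 0 on different arrays, array 3 for the first and array 1 for the second. A log2 ratio below 0 on all 3 arrays was found for 3 of the 14 tested Notch probes and for 17.4% of all tested probes. Among the 3 is the Notch2 probe A_52_P448796, which was tested through Cy3 alone.

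The 10 copies of the Notch1 probe set array 3 apart from the others. Their SD was 0.18 on array 1, 0.16 on array 2 and 0.056 on array 3, and 3, 1 and 0 of the 10 spots lay above 0. On array 3 all 10 lay between -0.58 and -0.42, below every spot of arrays 1 and 2, whose spots overlapped each other. On arrays 1 and 2 the ratio after loess fell with the number of the spot. On array 1 it was 0.31 at spot 1660 and -0.32 at spot 38245. The processed signals there were 375 in Cy5 and 405 in Cy3 at the first, and 386 and 432 at the second. The SDs of arrays 1 and 2 therefore hold this trend as well as error between spots, and its origin was not tested. Spots of 1 array share their RNA and labelling, so the array and not the spot is the replicate.

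Notch2, a receptor of smooth muscle and other mesenchymal cells of the outflow tract, had 3 probes on the plus strand of chromosome 3, and they are shown because they gave different ratios. In transcript order they start at chr3:97951205-97951264, chr3:97952843-97952902 and chr3:97953914-97953973 (mm9), and the first is printed whole and the others as bases 1 to 30.
Notch2 A_51_P216397: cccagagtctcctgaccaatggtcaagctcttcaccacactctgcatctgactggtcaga
Notch2 A_52_P448796: tctgtggtaatctaggatgatagttttctc
Notch2 A_52_P289213: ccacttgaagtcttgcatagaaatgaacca
The first probe gave -0.056, 0.12 and 0.20 (mean 0.087 ± 0.13, SD, n = 3), the middle one -0.20, -0.20 and -0.070 (mean -0.16 ± 0.075) and the last -0.033, 0.12 and 0.76 (mean 0.28 ± 0.42), with limma adjusted p-values of 0.799, 0.599 and 0.521. After loess the middle probe was the lowest of the 3 on every array, by 0.44 on average against the last and by 0.24 against the first. By the scanner software it was the highest on array 2, at 0.22 against 0.10 for the last and 0.019 for the first. It was also dim: it was well above background in Cy5 on 1 of 3 arrays, with processed Cy5 signals of 64.7, 45.2 and 10.1 and Cy3 signals of 76.2, 38.9 and 36.8. The last probe owed its mean to array 3, where its processed signal was 2408 in Cy5 and 1288 in Cy3, against 1217 and 1197 on array 1 and 1162 and 1084 on array 2. Without array 3 its mean was 0.044.

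Notch3, the receptor typical of pericytes and vascular smooth muscle, was read by 1 probe (A_51_P220162, chr17:32257848-32257907). Its ratios were 0.50, 0.44 and -0.28, with processed signals of 1566, 1835 and 1922 in Cy5 and 1280, 1507 and 2496 in Cy3. Cy5 was the higher channel on arrays 1 and 2 and the lower on array 3. The mean was 0.22 ± 0.44 (SD, n = 3; limma adjusted p of 0.624). Without array 3 the mean was 0.47 with a limma adjusted p of 0.0605. By the scanner software its ratios were 0.29, 0.28 and -0.38, smaller on arrays 1 and 2 than after loess, and their mean was 0.066. Its spot has the number 10662, and the part of the trend with spot number in its loess ratios was not tested. Notch4, which is mostly endothelial, gave -0.15, 0.14 and -0.33 with its probe A_51_P195875 on the same chromosome (chr17:34725120-34725179), with a mean of -0.11 ± 0.24 (SD, n = 3; limma adjusted p of 0.761). The channels changed order between arrays, with processed Cy5 signals of 997, 1014 and 1577 beside Cy3 signals of 1070, 832 and 2045.

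**Figure D2:**
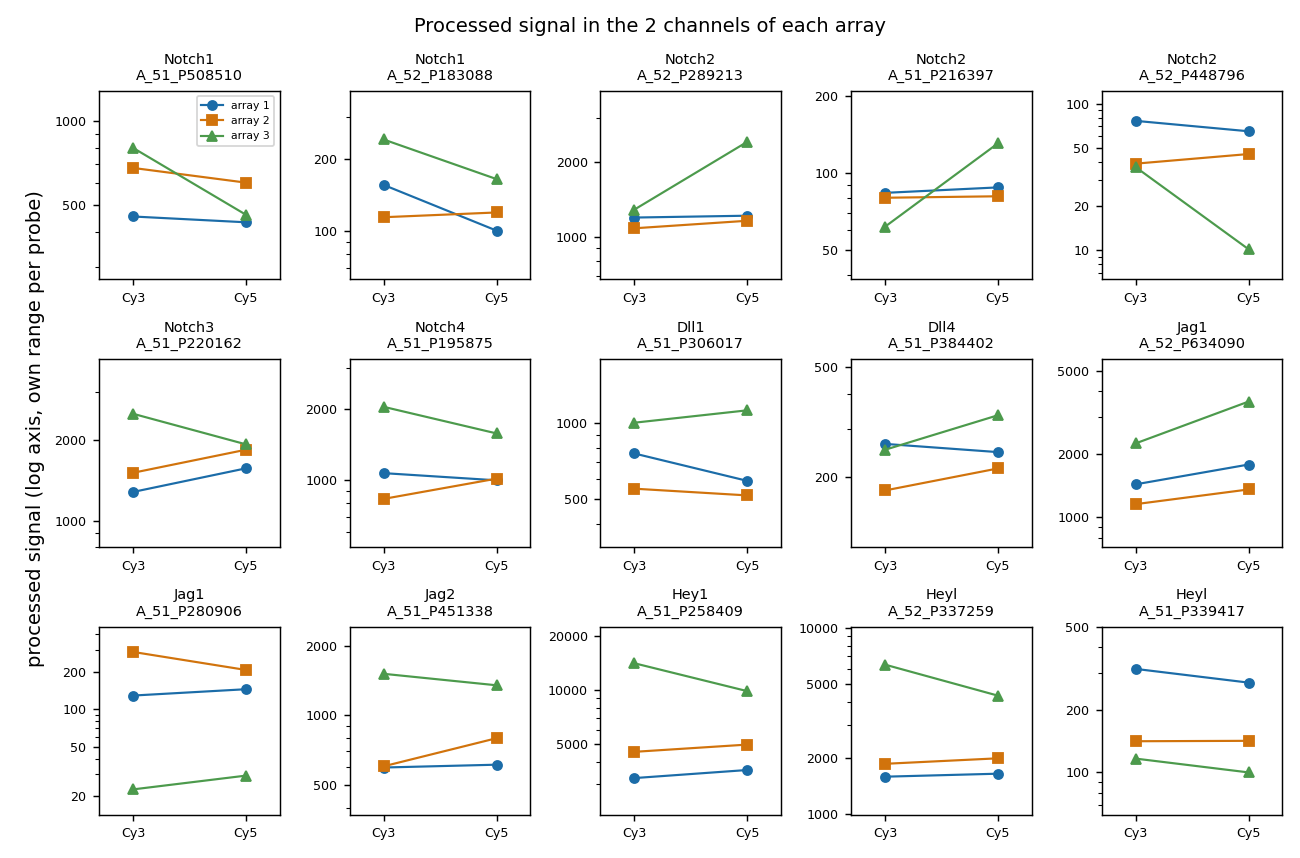
Processed signal (y axis, log scale with its own range in each panel, arbitrary units) in Cy3 and Cy5 of each array for the 15 probes, with a line joining the channels of 1 array. Lines that rise to the right are higher in Cy5: all 3 do so for Jag1 A_52_P634090, from 1436 to 1785, from 1156 to 1358 and from 2251 to 3560.

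Among the ligands, Jag1 stood highest, and the others had ratios on both sides of 0. The 4 tested ligand probes had a median of 0.14, with 3 above 0 and 1 below. Jag1 was the single Notch gene at an unadjusted p under 0.05 in limma (0.00652), and it did not pass after adjustment.

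Jag1, a ligand needed in the endocardium and the outflow tract, had a bright probe and a dim one on the minus strand of chromosome 2, at chr2:136907433-136907492 (A_52_P634090) and chr2:136908942-136909001 (A_51_P280906). Both are shown because they were not alike, the bright one as bases 1 to 30 and the dim one whole.
Jag1 A_52_P634090: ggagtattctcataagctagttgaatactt
Jag1 A_51_P280906: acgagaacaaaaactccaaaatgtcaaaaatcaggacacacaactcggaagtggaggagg
The bright probe gave 0.45, 0.31 and 0.60 on arrays 1, 2 and 3. The processed signal was higher in Cy5 on each array, at 1785, 1358 and 3560 against 1436, 1156 and 2251 in Cy3. The mean was 0.46 ± 0.15 (SD, n = 3), a 1.37-fold higher signal, with a 95% interval from 0.17 to 0.74 and a limma adjusted p of 0.175. Its mean lay at percentile 95.2 of all tested probes, counted toward Cy5, or 4.85 counted toward Cy3. It was the 1 of 14 tested Notch probes that was at least 1.2-fold higher on all 3 arrays by loess ratios, where 4.12% of all tested probes were, and 0 of the 14 were at least 1.2-fold lower on all 3, beside 1.23%. By the scanner software's own ratios it was not, because array 2 fell short at 0.23.

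The dim Jag1 probe was not tested, since it was well above background on 2 of 3 arrays in each channel. Its ratios were 0.22, -0.27 and -0.013, with processed signals of 144, 206 and 29.2 in Cy5 and 128, 288 and 22.6 in Cy3. Its direction on array 2 was opposite to that of the bright probe. On array 3 its signals were low and its software ratio was 0.37, of the other sign than its loess ratio, so no direction is read there.

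Jag2, the other Jagged ligand (A_51_P451338, chr12:114146887-114146946), gave 0.17, 0.42 and -0.13 with processed signals of 612, 797 and 1348 in Cy5 and 595, 603 and 1511 in Cy3. Array 3 again had the opposite sign. The mean was 0.15 ± 0.28 (SD, n = 3; limma adjusted p of 0.675).

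Dll1 and Dll4 are Delta-like ligands, and Dll4 is the main one of arterial endothelium and endocardium. Dll4 (A_51_P384402, chr2:119160779-119160838) gave -0.089, 0.25 and 0.21 (mean 0.12 ± 0.19, SD, n = 3; limma adjusted p of 0.713), with processed signals of 247, 215 and 335 in Cy5 and 264, 179 and 252 in Cy3. Cy5 was higher on arrays 2 and 3 only. Dll1 (A_51_P306017, chr17:15504623-15504682) was, like Notch1, printed 10 times per array, and its ratios were -0.30, -0.095 and 0.13 (mean -0.090 ± 0.21, SD, n = 3; limma adjusted p of 0.811). Processed Cy5 signals of 591, 518 and 1124 stood beside Cy3 signals of 759, 550 and 1004.

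The copies of the Dll1 probe differed in sign between arrays 1 and 3. The SD of the 10 spots was 0.21, 0.15 and 0.067 on arrays 1, 2 and 3, and 1, 2 and 10 of them lay above 0. Array 3 was therefore above 0 at every spot and array 1 below 0 at all but 1. Notch1 moved the other way on array 3, where all 10 of its spots were below 0. The loess ratios of Dll1 also fell with the number of the spot, from 0.16 at spot 3032 to -0.52 at spot 39222 on array 1.

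**Figure D3:**
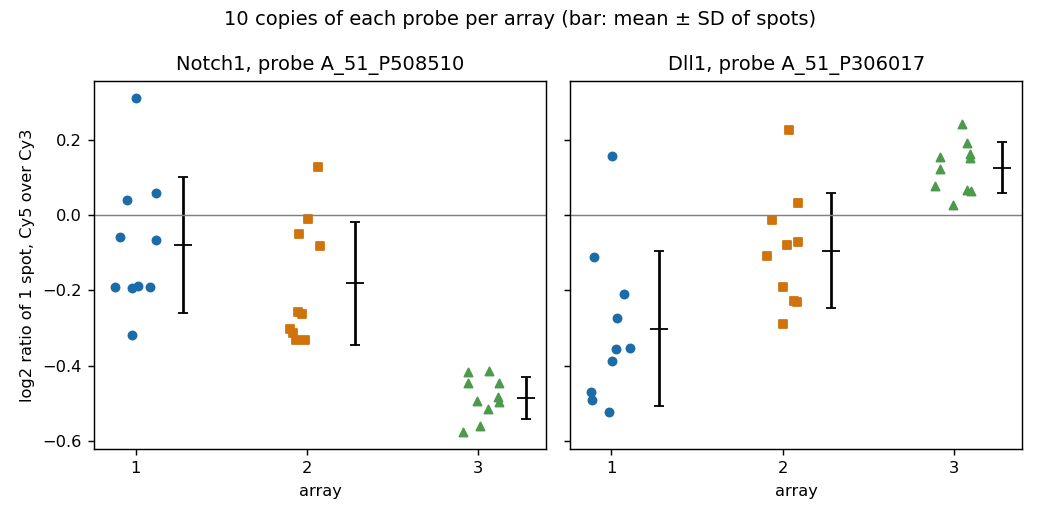
Log2 ratio of each of the 10 spots (y axis) that carry the Notch1 probe A_51_P508510 (left) and the Dll1 probe A_51_P306017 (right) on arrays 1, 2 and 3 (x axis), with the mean ± SD of the spots beside each array. On array 3 the Notch1 spots lie between -0.58 and -0.42 and the Dll1 spots between 0.028 and 0.24.

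The target genes Hey1 and Heyl, which encode repressors of the hairy and enhancer-of-split family, had ratios near 0 on average. The 3 target probes had a median of 0.088, with 2 above 0 and 1 below, and their limma adjusted p-values ran from 0.784 to 0.969.

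Hey1 (A_51_P258409, chr3:8663432-8663491) gave 0.19, 0.17 and -0.42, with processed signals of 3601, 4985 and 9881 in Cy5 and 3247, 4544 and 14120 in Cy3. The mean was -0.020 ± 0.35 (SD, n = 3; limma adjusted p of 0.969), and without array 3 it was 0.18. Heyl had probes at chr4:122925488-122925547 (A_51_P339417) and chr4:122926975-122927034 (A_52_P337259). The second was the brighter and gave 0.44, 0.33 and -0.42, with processed signals of 1650, 1994 and 4319 in Cy5 and 1590, 1864 and 6330 in Cy3. Its mean was 0.12 ± 0.47 (SD, n = 3; limma adjusted p of 0.824), and without array 3 it was 0.39 with a limma adjusted p of 0.126. By the scanner software its ratios were 0.053, 0.098 and -0.55, smaller on arrays 1 and 2 than after loess. Its spot has the low number 3607. The copies of Notch1 and Dll1 with the lowest spot numbers had the highest loess ratios on arrays 1 and 2. The first probe gave 0.072, 0.16 and 0.032 (mean 0.088 ± 0.066, SD, n = 3; limma adjusted p of 0.784), and it did not share the fall on array 3.

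Array 3 stood alone in sign for 5 of the 14 probes, namely Notch3, Dll1, Jag2, Hey1 and the brighter Heyl probe. Over the whole array the same was true of 29% of the probes with a ratio on all 3 arrays. Across the 14 probes, arrays 1 and 2 correlated with an r of 0.777, arrays 1 and 3 with -0.038 and arrays 2 and 3 with 0.070, beside 0.509, 0.218 and 0.223 across all tested probes. These are correlations across probes that share an RNA pool and partly a gene, and they are given as a description. On arrays 1 and 2, more than on array 3, the loess ratios of the Notch1 and Dll1 copies fell with spot number. The part of that trend in these values was not tested. Ratios of 1 sign on all 3 arrays were found for 5 of the 14 probes and for 36.6% of all tested probes. The 2 above 0 were Jag1 A_52_P634090 and Heyl A_51_P339417 (19.1% of all tested probes), and the 3 below 0 were both Notch1 probes and the middle Notch2 probe. That Notch2 probe was tested through its Cy3 signal alone.

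The scanner software's own ratios differed from the loess ratios for some probes. Of 42 ratios (14 probes on 3 arrays), 36 had the same sign by both methods. By the software, the second Notch1 probe (0.066) and the middle Notch2 probe (0.22) were above 0 on array 2, and Heyl A_51_P339417 gave -0.22, 0.0065 and -0.22, so these probes did not keep 1 sign. The median of the 14 means was -0.070 with the software's ratios. The software's test within 1 array gave a p under 0.05 for 1, 0 and 8 of the 14 probes on arrays 1, 2 and 3, where 20.7%, 12.7% and 41.6% of all tested probes had one. Those p-values carry no error between hearts.

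**Figure D4:**
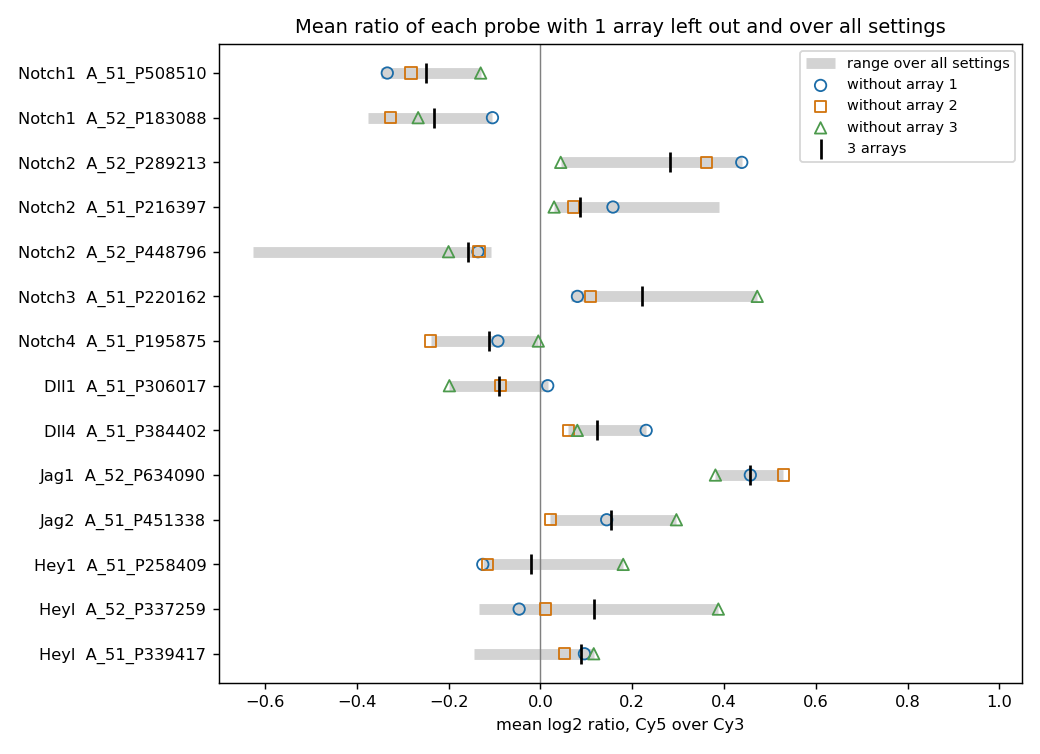
Mean log2 ratio of Cy5 over Cy3 (x axis) of the 14 tested probes (rows) with all 3 arrays (black bar), with 1 array left out (open symbols) and over all settings run (grey band). Jag1 A_52_P634090 stays between 0.38 and 0.53, whereas Dll1, Hey1 and both Heyl probes cross 0.

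Beyond these 10 genes, 43 of the other Notch pathway genes listed had a probe and 41 were tested, with 1 probe per gene. None passed limma's adjusted threshold. By limma's unadjusted p under 0.05, 3 were higher and 4 lower, or 17.1% of the 41, beside 13.3% of all tested probes. Their median was -0.046, with 16 above 0 and 25 below.

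Of these 7 genes, 5 act with the receptor in the nucleus. Rbpj, the DNA-binding protein to which the receptor fragment binds, gave -0.70, -0.34 and -0.57 (mean -0.54 ± 0.19, SD, n = 3; limma adjusted p of 0.128). The signal was lower in Cy5 on all 3 arrays. Of the others, 5 are named here after their values were seen: the coactivators Maml2 and Snw1, the corepressor Spen, the protease Adam17 and the ligand-like protein Dlk1. Maml2 gave 0.65, 0.46 and 0.50 (mean 0.54 ± 0.10; limma adjusted p of 0.0992), while its other probes averaged 0.41 and 0.15. Spen averaged 0.77 ± 0.61 and Snw1 0.40 ± 0.33, with 0.22 for the other probe of Snw1. Adam17, which can cut receptors at the cell surface, averaged -0.36 ± 0.098 and -0.31 by its other probe, and Dlk1 -0.34 ± 0.18 and -0.36. For Adam17 and Dlk1 both probes were below 0 on all 3 arrays. Without array 3, 3 of the 41 (7.32%) were called, beside 6.37% of all tested probes: Maml2 passed at 0.56 (limma adjusted p of 0.0282), Rbpj at -0.52 (0.0468) and the receptor-processing protease Furin, named after its value was seen, at -0.60 (0.0206).

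The other tested genes that were named by rule did not reach an unadjusted p under 0.05 in limma. Adam10, a protease that cuts the receptors, gave 0.21, 0.15 and -0.29 (mean 0.025). Lfng, which modifies the receptors with sugars, gave -0.091, -0.29 and 0.040 (mean -0.11). Of the further targets, Hes1 gave -0.47, -0.13 and 0.35 (mean -0.081 ± 0.41, SD, n = 3), Hey2, a gene of compact ventricular myocardium, -0.15, 0.16 and 0.093 (mean 0.035 ± 0.17) and Nrarp, a feedback inhibitor, -0.039, 0.30 and 0.056 (mean 0.11 ± 0.18). Hes1 crossed 0 between arrays in the order opposite to Hey1, which was above 0 on arrays 1 and 2 and below on array 3. Of the 7 further targets, 3 were above 0 and 4 below. Dll3 was not tested, since it was well above background on 2 arrays in Cy5 and on 1 in Cy3.

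**Figure D5:**
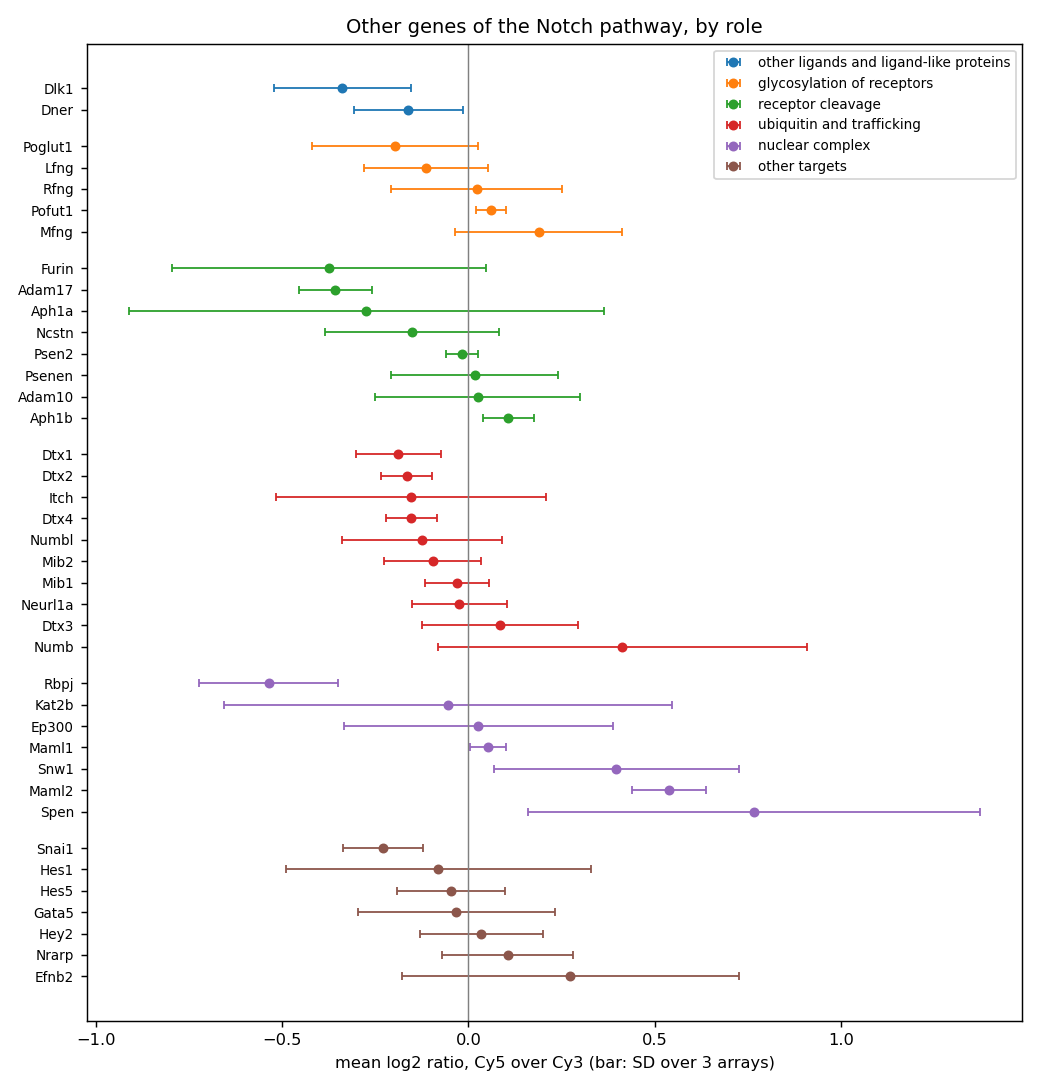
Mean log2 ratio of Cy5 over Cy3 (x axis, bar: SD over 3 arrays) for 39 of the 41 tested pathway genes outside the 10, grouped by role and ordered by value within a role. The widest range is in the nuclear complex, from -0.54 for Rbpj to 0.77 for Spen, and none of the 41 passed the adjusted threshold.

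Markers of the cells that carry these receptors and ligands were read beside them. All 11 endothelial and endocardial markers were tested and 0 passed the threshold in limma (1 higher and 1 lower at an unadjusted p under 0.05), with medians of 0.083, 0.14 and -0.076 on arrays 1, 2 and 3. Their summed processed signals ran from 43189 to 99498 in Cy5 and from 40656 to 108506 in Cy3. The 5 arterial markers had a median of 0.069 and also gave 0 calls, with 0 at an unadjusted p under 0.05. Of the 8 smooth muscle and pericyte markers, 7 were not saturated in both channels, and their medians on the 3 arrays were 0.040, -0.057 and -0.074, with 0 passing and 1 lower at an unadjusted p under 0.05. The summed signals of these 7 ran from 50594 to 120314 in Cy5 and from 55242 to 152006 in Cy3. Of the 7, 2 were above 0 on all 3 arrays after loess and 3 were below. The 2 above were the pericyte markers Rgs5 (0.040, 0.33 and 0.50) and Cspg4 (0.45, 0.28 and 0.12). The processed signal of Rgs5 on array 1 was lower in Cy5, at 456 against 592 in Cy3. The 3 below were Tagln (-0.59, -0.43 and -0.44), Cnn1 (-0.13, -0.10 and -0.13) and Des (-0.37, -0.057 and -0.065). The pericyte marker Pdgfrb gave 0.24, 0.39 and -0.24. The 4 cardiomyocyte markers that were not saturated in both channels had a median of -0.17, with all 4 means below 0. Their medians on arrays 1, 2 and 3 were -0.42, 0.041 and -0.14. Only 1 of the 4 was below 0 on all 3 arrays, beside 17.4% of all tested probes. None of the 4 reached an unadjusted p under 0.05 in limma. Liver markers differed between the pools of array 2, where Afp stood at -5.15 and Alb at -2.74, against 0.82 and 0.81 on array 1 and 0.77 and 0.17 on array 3. The part of any of these cells in the Notch ratios was not tested.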

How the data were processed

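Two-colour arrays of 3 pairs of pooled E15.5 hearts were analysed. Per the file headers, the authors' scanner files hold spot intensities from Agilent Feature Extraction 9.1.3.1 (array 1, scanner G2505B) or 10.7.3.1 (arrays 2 and 3, scanner G2505C). Processed intensities had been background-subtracted and dye-normalized. The deposited log10 ratio is Cy5 over Cy3, and the deposited p-value is the software's test within 1 array. The authors' series table holds the same log10 values (largest difference 0).

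Mean intensities were corrected with normexp on the median local background (offset 50) and normalized by loess within each array in limma 3.58.1 (R 4.3.3), giving log2 ratios from the deposited intensities. Non-uniform spots were left out, which touched none of the Notch spots, and spots of 1 probe were averaged. Probes well above background on all 3 arrays in Cy5 or in Cy3 were tested (28328, among them 14 of the 15). Ratios were tested against 0 (lmFit, eBayes, two-sided), with Benjamini-Hochberg adjustment over all tested probes and a threshold of 0.05. The fit was tested on simulated data. What is called the methods' t-test here is a one-sample test of the 3 loess ratios with the same adjustment, and not the authors' procedure for calling array probes. The number of arrays limits the precision.

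Members and gene lists were chosen with earlier results of these data known. Named were Lrrc10, the 10 genes with all their probes, any other pathway gene past the threshold, and Hey2, Hes1, Rbpj, Lfng, Dll3, Nrarp and Adam10. Of the other pathway genes, 2 are counted but not reported here by name. For other genes with more than 1 probe, the brightest tested one was used. Further tested probes are given for the named pathway genes. Further probes of markers and untested probes of these other genes are not given. Besides the markers reported, lists of epicardial (5 of 5 tested, median 0.031) and erythroid genes (4 not saturated in both channels of 6, median -0.12) were read, with 0 calls each. Alternatives covered background correction, normalization, scaling, filters, tests, array weights, software version, a separate fit of the channels and leaving out each array.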

Additional observations from a re-analysis of the deposited data

Results flagged for a closer look

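The dim Jag1 probe A_51_P280906, which entered no test, nevertheless carried signal: it was well above background in Cy5 on 2 of 3 arrays and in Cy3 on 2 of 3. Its 3 ratios had a mean near 0 and both signs, as given beside the bright probe of Jag1.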

How the results depend on the processing

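The count of 0 Notch probes past the threshold was the same under all 16 alternatives that give it. Among single probes, 217 of 226 values under an alternative kept the sign of the main value, and all stayed on the same side of the threshold. Many of these signs could not turn. The methods' t-test, an intensity trend, the other filters on dim probes, keeping non-uniform spots and the separate fit of the channels left the mean ratios as they were. Processed signals and the series table, which hold the same ratios, turned both probes of Heyl (-0.13 for A_52_P337259 and -0.14 for A_51_P339417) and moved the median of the Notch probes to -0.070. Hey1 turned with arrayWeights (0.079) and with a block for software version (0.032). Without 1 replicate, Dll1 ranged from -0.20 to 0.016, Hey1 from -0.13 to 0.18, Heyl A_52_P337259 from -0.046 to 0.39 and the median from 0.016 to 0.062. The limma adjusted p of Jag1 A_52_P634090 ranged from 0.125 to 0.756, and its unadjusted p was under 0.05 except with processed signals or the series table. Pathway genes past the threshold ranged from 0 to 3 without 1 replicate.

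Over the whole array, 395 probes were higher and 1 lower. Both counts fell to 0 under the methods' t-test, scaling between arrays, and either use of the software's ratios. They were 1 and 0 if the background was not corrected or if software version was blocked, and 145 and 0 if dim probes were kept. With the channels of an array fitted separately, linked by an estimated correlation within spots, they were 143 and 2, and 0 Notch probes were called. They were 266 and 2 with median centring, 461 and 3 with an intensity trend and 555 and 14 with arrayWeights. Leaving out 1 replicate gave 1 to 1556 higher and 0 to 248 lower probes. Lrrc10 was higher throughout but missed the threshold in the same 4 settings in which both counts were 0. What caused the changes was not tested.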
